A study of Mus musculus with 14 samples.

Results

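Variant counts are described here for 9 protein-coding genes of 21312 listed in whole-exome tables of mouse mammary tumours: the mucins Muc1, Muc2, Muc4, Muc5ac, Muc5b, Muc6, Muc16 and Muc20, and Zan, which encodes zonadhesin. The genes were chosen by name as large, repeat-rich secreted or surface proteins, and Zan and Muc5b were picked out because they are among the genes with the most variants. The high counts of Zan and Muc5b are therefore the reason for their choice and are given as a description, with no test. A gene's count in a tumour was the largest over its protein-coding transcripts, and an unlisted gene was taken as 0. Coding variants are those that snpEff, the program that wrote the tables, gave a high, moderate or low predicted impact. Protein-altering variants are the high-impact ones, such as stop gains and frameshifts, and the moderate ones, such as missense changes.

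Mucins are glycoproteins whose long repeats of serine, threonine and proline carry dense O-linked sugar chains. Muc2, Muc5ac, Muc5b and Muc6 are secreted, and their von Willebrand D domains join the molecules into the networks that give mucus its gel. Muc1, Muc4, Muc16 and Muc20 span the cell membrane, where the extracellular part forms a barrier, and MUC1 and MUC16 are long-known markers of human carcinomas of the breast and ovary. Zonadhesin is a protein of the sperm head that binds the egg coat in a species-dependent way and also carries repeated von Willebrand D domains.

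The samples were p53null mammary tumours of Balb/c mice, grown from transplanted mammary fragments and taken when they reached a largest diameter of 2 cm. Tumours A1, A2 and A3 grew in fat pads that held a soft gel of rat-tail collagen 1 and basement membrane extract, and A7, A8 and A9 grew in the same gel made stiff with 500 mM L-ribose, a sugar that crosslinks collagen. Those gels were placed in cleared fat pads of mice 3 to 4 weeks old, and the fragments came from syngeneic p53null mice 8 to 10 weeks old. Tumours B1, B2 and B3 grew in LysM-Cre hosts wild-type (WT) for GPX4, and B4, B5 and B6 in LysM-Cre GPX4 knockout (KO) hosts. LysM-Cre is active in myeloid cells, GPX4 is a peroxidase that removes lipid peroxides, and the deletion lies in the host and not in the implanted fragment. All 12 tumours lack p53, so no group shows these genes in tumours with p53. The labels do not say how many donors or hosts gave the tumours of a group, and p-values measure the spread between these samples only. The 2 wild-type tails of the series were not analysed here.

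The tumours held 14434 to 27337 coding variants and 8317 to 16544 protein-altering variants over all protein-coding genes. The read depth behind a count is unknown, so no counting interval is given. Tumours A9 and B5 stood apart, with 2112 and 2056 high-impact variants where the other 10 tumours had 2702 to 4648, and with 19.9 and 23.1 frameshifts per 100 missense variants where the others had 27.7 to 30.8. Several comparisons and the correlations below that move with these tumours are also given without them. The tables hold no positions, so inherited strain differences, somatic mutations and false calls cannot be told apart, nor can it be said whether tumours share a variant. Variant counts do not show whether Trp53 or Gpx4 was deleted, or what tissue a sample was, so the labels were not checked in that way.

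Zan (ENSMUSG00000079173) had the most coding variants of the 9 genes in every tumour. Its coding counts were 72, 65 and 63 in the soft tumours A1, A2 and A3, and 63, 70 and 55 in the stiff tumours A7, A8 and A9. Among tumours of WT hosts they were 75 in B1, 79 in B2 and 65 in B3, and among those of KO hosts 59 in B4, 65 in B5 and 67 in B6. The highest and lowest values lay in different experiments, and all 4 groups overlapped. The mean of 66.5 ± 6.68 (SD, n = 12) placed Zan at rank 6 of all protein-coding genes by coding count. It lay between Tnxb at 76.4 and Pfdn2 at 61.7, both within 2 SD of it, and differences between these genes were not tested. These ranks are of counts, not of counts per coding length, since gene lengths of the files' build were not used here.

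Most Zan variants lay outside the coding sequence. Its variants of the lowest impact class, mainly intronic, numbered 194 to 241 per tumour, with a median of 212.5. Within the coding sequence, missense variants numbered 19 to 30 and synonymous variants 21 to 30 per tumour. The missense and synonymous counts of Zan were equal in 8 of the 12 tumours. Of the 295 genes with a mean coding count of at least 10, 3 had equal counts in 8 or more tumours, Zan included. The limit of 8 was taken from the Zan count itself, so this number is no test of how unusual Zan is. Over the 12 tumours, Zan held 299 missense and 302 synonymous variants, or 99 missense per 100 synonymous. All protein-coding genes together held 121 to 131 per 100 in each tumour. Of the 295 genes, 74.2% had a higher ratio than Zan, and their lower and upper quartiles were 98 and 199, so Zan lay within them.

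Several truncating and splice variants of Zan were listed in every tumour. A splice donor variant was listed exactly 1 time in each of the 12 tumours, and splice acceptor variants 1 or 2 times. Stop-gained variants numbered either 2 or 4, with no tumour at 3. The count was 4 in A1, A7, A8, B1, B2, B4 and B6 and 2 in A2, A3, A9, B3 and B5, so both counts occurred in every group. Frameshifts were less even, from 2 in A9 to 10 in B3, with a median of 6. Over all tumours Zan held 12.7 stop gains per 100 missense variants, against 6.27 to 7.16 per tumour over all protein-coding genes. No value for genes of like count is set beside it.

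Muc5b (ENSMUSG00000066108), the main gel-forming mucin of the airway, was second. Its coding counts were 35, 37 and 36 in the soft tumours and 38, 38 and 31 in the stiff tumours A7, A8 and A9. They were 51, 49 and 38 in WT hosts B1, B2 and B3, and 33, 29 and 52 in KO hosts B4, B5 and B6. Tumours B1, B2 and B6 stood above the other 9, which lay between 29 and 38. The mean of 38.9 ± 7.66 (SD, n = 12) gave rank 14 by coding count, between Ccne1 at 39.6 and Sfi1 at 38.4, from which Muc5b did not differ beyond its spread.

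**Figure D1:**
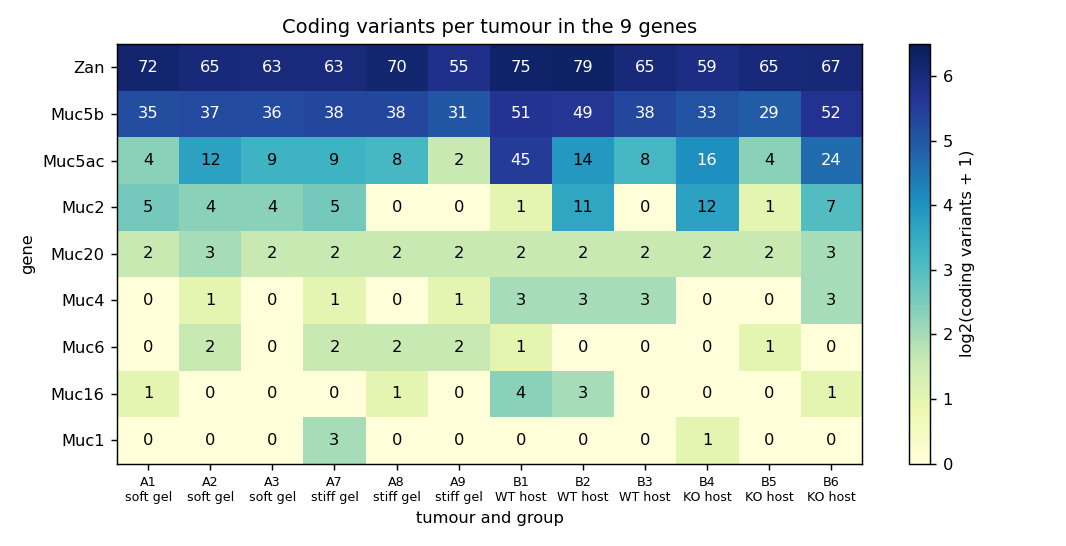
Coding variants in each of the 9 genes (rows) in each of the 12 tumours (columns), with the count printed in each cell and the colour giving log2(count + 1). Zan stays between 55 and 79 and Muc5b between 29 and 52 in every tumour, while Muc5ac runs from 2 to 45 and the membrane mucins stay at 4 or fewer.

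Missense variants made up a large part of the coding variants of Muc5b. It held 306 missense and 92 synonymous variants over the 12 tumours, or 333 missense per 100 synonymous. Missense exceeded synonymous variants in all 12 tumours, and the ratio ran from 256 in B3 to 460 in B4. Of the 295 genes with a mean coding count of at least 10, 26 had a higher ratio (8.81%), and the median of those genes was 137. Stop gains were at most 1 per tumour, and 1 splice donor variant was listed in each tumour except A9, which had none.

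The missense ratio of Muc5b was 400, 440 and 460 per 100 synonymous variants in the 3 tumours of KO hosts and 256, 320 and 322 in the 3 of WT hosts. The groups did not overlap, and the 6 gel tumours, at 278 to 343, also lay below the KO tumours. The mean was 433 ± 30.6 (SD, n = 3) for the KO group, against 299 ± 37.9 for the WT group (SD, n = 3). The exact permutation test gave p = 0.1, the smallest that 3 tumours against 3 allow. Of 270 genes of like count with a synonymous variant in every host tumour, 4.81% had KO tumours wholly above WT tumours in this ratio. Without B5 the KO values were 460 and 400. They rest on only 5, 5 and 9 synonymous variants in B4, B5 and B6, and the pattern was picked after the values were seen.

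**Figure D2:**
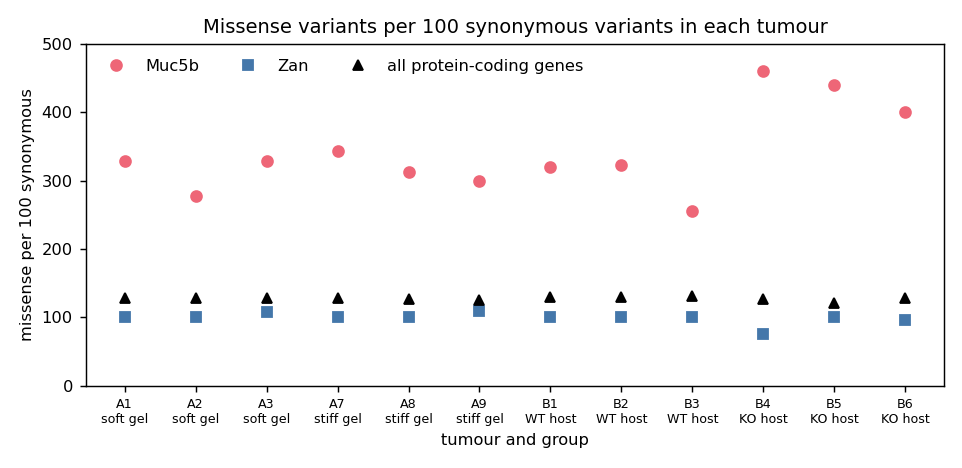
Missense variants per 100 synonymous variants in each tumour for Muc5b (circles), Zan (squares) and all protein-coding genes together (triangles). Muc5b lies between 256 and 460 and is highest in the 3 tumours of KO hosts, all genes together lie between 121 and 131, and Zan lies at 100 in 8 tumours.

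Muc5ac, the gel-forming mucin of the stomach surface and airway goblet cells, varied more between tumours than almost any gene of its level. Its coding counts were 4, 12 and 9 in A1, A2 and A3 and 9, 8 and 2 in A7, A8 and A9. In the host experiment they were 45, 14 and 8 in B1, B2 and B3 and 16, 4 and 24 in B4, B5 and B6. Tumour B1 stood far above the rest, and A9 was lowest. The variance of the Muc5ac counts was 10.7 times their mean, and 98.6% of the 295 genes with a mean coding count of at least 10 had a smaller ratio. For Zan and Muc5b the variance was 0.671 and 1.51 times the mean, and the median gene stood at 0.778. Tumour B1 alone held 22 missense, 14 synonymous and 6 frameshift variants in Muc5ac.

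Muc2, the main mucin of the colon, split the tumours into those with several coding variants and those with almost none. Its variants of the lowest impact class numbered 32 to 70 per tumour and did not show such a split. Its coding counts were 5, 4 and 4 in A1, A2 and A3, 5, 0 and 0 in A7, A8 and A9, 1, 11 and 0 in B1, B2 and B3, and 12, 1 and 7 in B4, B5 and B6. A stop gain, a frameshift and a splice donor variant were each listed in the same 7 tumours, A1, A2, A3, A7, B2, B4 and B6, and none of these was listed in the other 5. One variant can carry more than 1 of these terms, so they need not be separate changes. The 7 tumours were all 3 soft tumours, 1 stiff, 1 from a WT host and 2 from KO hosts. In 5 tumours the protein-altering count of Muc2 was lower with the median over its 8 protein-coding transcripts, by up to 7.

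Muc6, a mucin of stomach glands, had coding counts of 0, 2 and 0 in A1, A2 and A3 and 2 in each of the stiff tumours. In the host experiment it had 1 in B1 and 1 in B5 and none in the other 4. Its protein-altering variants were all missense, with 1, 1 and 2 in A7, A8 and A9, 1 in B1 and none elsewhere. The A2 and B5 variants were synonymous. Thus the 3 stiff tumours and B1 were the only ones of the 12 with a missense variant in Muc6.

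The 4 membrane mucins had few coding variants. In the lowest impact class, Muc4 had 20 to 49 variants per tumour, Muc20 9 to 24, Muc16 0 to 8 and Muc1 0 to 2. Muc20, which lies beside Muc4 in gene order, was the most even of the 9 genes. One synonymous variant of Muc20 was listed in each of the 12 tumours, with 1 missense variant in 10 of them and 2 in A2 and B6. Muc4 had 3 coding variants in B1, B2, B3 and B6, 1 in A2, A7 and A9, and none in the other 5 tumours. All 3 tumours of WT hosts thus had 3, while its protein-altering counts there were 2, 0 and 2. Muc16, which carries the CA125 antigen, had coding counts of 4 in B1, 3 in B2 and 1 in A1, A8 and B6. Muc1 was listed with a coding variant in only 2 tumours, 3 in A7, including a stop gain and a frameshift, and 1 missense variant in B4.

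Together the 9 genes held 57 to 115 protein-altering variants per tumour, or 0.579% to 0.769% of all such variants. Zan and Muc5b supplied 53 to 81 of them and the other 7 genes 3 to 35. The share was 0.694% ± 0.0555 in soft, 0.716% ± 0.0726 in stiff, 0.662% ± 0.0723 in WT-host and 0.71% ± 0.0415 in KO-host tumours (SD, n = 3 each), and all groups overlapped.

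Over all 12 tumours and within the host tumours, the Muc5b count moved with the number of variants in the rest of the exome. Across the 12 tumours its coding count correlated with the coding total of all genes outside the 9 (Pearson's r = 0.924, permutation p = 6.0e-05, adjusted p = 0.00795; Spearman's rho = 0.796, permutation p = 0.00256, adjusted p = 0.0341). Adjustment was over 293 genes with a mean coding count of at least 10 and counts that differed between tumours. Tumours were permuted over both experiments together, so differences between the experiments enter these p-values. Muc5b had the highest r of the 293, whose median was 0.465, and 42 of them (14.3%) had an adjusted p under 0.05. Without B1 and B6, the 2 tumours farthest from the median total, r was 0.843. Within the 6 host tumours r was 0.951 (exact permutation p = 0.00278), and within the 6 gel tumours it was 0.5 (exact permutation p = 0.325), so the relation was not detectable in the gel experiment alone. Without A9 and B5, which had the lowest totals, r was 0.896 over the other 10 tumours (permutation p = 0.00221). It was 0.924 in the host tumours without B5 and -0.0422 in the gel tumours without A9.

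Muc5ac gave r = 0.869 (permutation p = 0.00019, adjusted p = 0.00795) and rho = 0.858 (permutation p = 0.00053, adjusted p = 0.0252). Its r was 0.676 without B1 and B6, 0.855 in the gel tumours (exact permutation p = 0.0306) and 0.82 in the host tumours (exact permutation p = 0.0417). Without A9 and B5 it was 0.85 over 10 tumours (permutation p = 0.00153). It was 0.784 in the host tumours without B5 and 0.776 in the gel tumours without A9. For Zan the relation did not pass the test, with r = 0.563 (permutation p = 0.0567, adjusted p = 0.153) and rho = 0.441 (permutation p = 0.15, adjusted p = 0.295). Its r was 0.508 without B1 and B6, 0.17 in the gel tumours (exact permutation p = 0.756) and 0.644 in the host tumours (exact permutation p = 0.164). Without A9 and B5 it was 0.491 over 10 tumours (permutation p = 0.148). The Zan r was 0.731 in the host tumours without B5. In the gel tumours it changed sign without A9, to -0.556. All these tests are two-sided. The part that sequencing depth has in these totals was not tested.

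**Figure D3:**
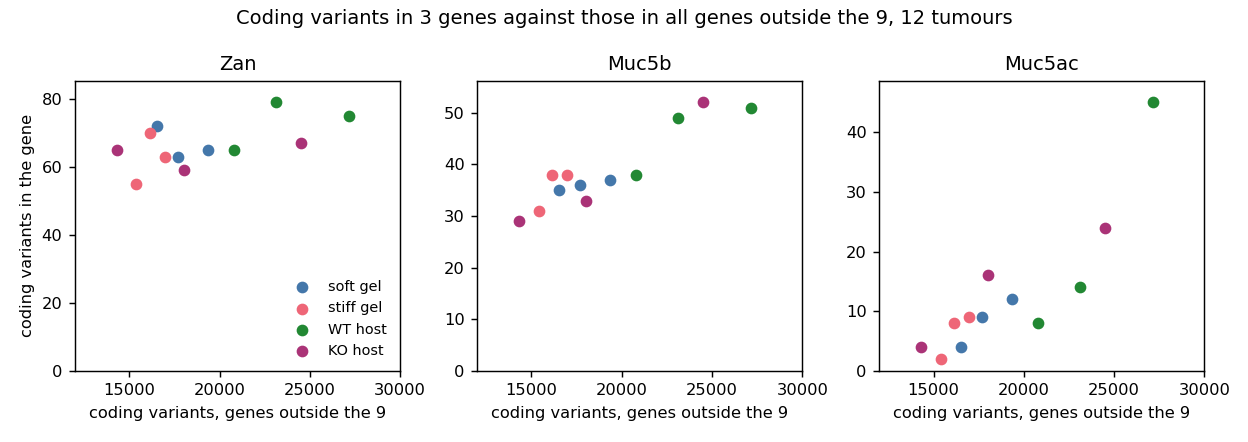
Coding variants in Zan, Muc5b and Muc5ac (vertical axes) against the coding variants of all genes outside the 9 (horizontal axes), in each of the 12 tumours (points coloured by group). Muc5b runs from 29 in B5 to 52 in B6 along with the total (r = 0.924), and the Muc5ac panel is led by B1 at 45.

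The genes whose coding counts over the 12 tumours were most like those of Zan, among 294 with a mean of at least 10, were C4b (Pearson's r = 0.852), Pcdhb13 (0.845) and Sipa1l2 (0.824). Those most like Muc5b were Col6a4 (0.922), Ift140 (0.915) and Arhgap30 (0.908). The tumours share their totals in all such pairs, and Col6a4 itself correlated with the total coding count at 0.915. Zan and Muc5b correlated with each other at 0.673.

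The gel experiment asked how stiffness of the matrix around a tumour relates to its DNA, and no mucin and not Zan passed the test across all genes. Of the 9 genes, 6 reached the sum of 3 protein-altering variants needed for testing. edgeR's quasi-likelihood test called 0 of 4312 genes after adjustment at 0.05 (0%). Before adjustment, 106 genes had a p under 0.05, of which 32 were higher (0.742%) and 74 lower (1.72%) in stiff tumours. DESeq2 called none, and 7 genes had an unadjusted p under 0.05 there. Of the 6 genes, 1 had a fitted level above soft and 5 below, with a median log2 fold change of -0.23. Over all genes tested the median was 0, with 35.3% above. The 1 above was Muc6, which reached the minimum only through the stiff tumours, so its direction is not read.

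By protein-altering counts, Muc6 was the one gene of the 9 in which soft and stiff tumours did not overlap. Its protein-altering counts were 0 in each of A1, A2 and A3 and 1, 1 and 2 in A7, A8 and A9. The mean was 1.33 ± 0.577 in stiff tumours (SD, n = 3). Across all genes tested, stiff tumours lay wholly above soft ones in 1.18% and wholly below in 2.69%. Muc6 reached the sum of 3 only through the stiff tumours, so no test of it is read here. Tumour A9 held 2 of its 4 variants, and without A9 it fell under the minimum for testing. With coding variants the Muc6 groups overlapped, because A2 had 2 synonymous variants. A test of the difference between the gel and host effects gave no p under 0.05 for any of the 9 genes (exact permutation test, adjusted p = 1 for each). Before adjustment, 44 of 6830 genes had one. The exact permutation p of Muc6 stood at 0.05 in that test. It is not read either, because the stiff tumours held most of the protein-altering variants of Muc6.

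The protein-altering counts of Zan were 41, 35 and 33 in A1, A2 and A3 and 34, 39 and 29 in A7, A8 and A9. The groups overlapped, with means of 36.3 ± 4.16 in soft and 34 ± 5 in stiff tumours (SD, n = 3; edgeR log2 fold change -0.10, SE 0.20, adjusted p = 1). The mean difference of -2.33 became 0.167 without A9. Muc5b had 28, 28 and 29 in soft tumours and 30, 29 and 24 in stiff tumours, so 2 of the stiff values lay at or above the soft ones and A9 below them. Its log2 fold change was -0.03 (SE 0.22, adjusted p = 1), and its mean difference of -0.667 became 1.17 without A9. Muc5ac had 2, 8 and 7 against 6, 4 and 1, a mean difference of -2 that became -0.667 without A9. Muc2 had 3, 2 and 2 against 3, 0 and 0, a mean difference of -1.33 that became -0.833 without A9.

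In variants of the lowest impact class, mainly intronic and flanking, Muc5ac and Muc5b were lower in stiff tumours with no overlap. Muc5ac had 37, 30 and 21 in A1, A2 and A3 and 14, 16 and 12 in A7, A8 and A9. Muc5b, its neighbour in gene order, had 24, 31 and 40 against 20, 19 and 12. The exact permutation p was 0.1 for each, the smallest possible, and the adjusted p was 1. Of 19525 genes tested in this class, 8.12% had stiff tumours wholly below soft ones, and the other 7 of the 9 genes overlapped. The differences were -15.3 and -14.7. Scaling by the sum of such variants in a tumour gave -12.5 and -11.2, still with no overlap, and leaving out A9 gave -14.3 and -12.2.

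The host experiment compared tumours in hosts with and without GPX4 in LysM-Cre cells, and again no gene of the 9 passed the test across all genes. Of the 9 genes, 7 were tested. edgeR called 0 of 5309 genes after adjustment at 0.05 (0%). Before adjustment, 199 genes had a p under 0.05, of which 26 were higher (0.49%) and 173 lower (3.26%) in KO hosts. DESeq2 called none, and 28 genes had an unadjusted p under 0.05 there. Of the 7 genes, 2 had a fitted level above WT and 5 below, with a median log2 fold change of -0.25. Over all genes tested the median was -0.31, with 26.7% above. Among those below, Muc4 and Muc16 reached the minimum only through the WT tumours, so their direction is not read. With each tumour's total as its library size, the median of all genes moved to 0.00 and that of the 7 to 0.12.

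By protein-altering counts, Zan was the one gene of the 9 in which the host groups did not overlap. Its protein-altering counts were 40, 43 and 38 in B1, B2 and B3 and 30, 36 and 36 in B4, B5 and B6. The means were 40.3 ± 2.52 in WT and 34 ± 3.46 in KO hosts (SD, n = 3), a difference of -6.33. The exact permutation test gave p = 0.1, the smallest possible, and an adjusted p of 1. The edgeR log2 fold change was -0.25 (SE 0.19, adjusted p = 1). Tumours of KO hosts lay wholly below those of WT hosts in 4.26% of all genes tested and wholly above in 0.735%. The difference was -7.33 without B5, and 3.93 in the opposite direction when counts were scaled to each tumour's protein-altering total. With coding variants, at 75, 79 and 65 against 59, 65 and 67, the groups overlapped.

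The protein-altering counts of Muc5b were 40, 38 and 28 in WT hosts and 28, 24 and 42 in KO hosts, so the highest and the lowest of the 6 both came from KO hosts (log2 fold change -0.17, SE 0.29, edgeR adjusted p = 1). The mean difference of -4 became -0.333 without B5. Those of Muc5ac were 30, 8 and 4 in WT hosts and 8, 1 and 13 in KO hosts. Its mean difference of -6.67 rested on B1 and became 1.33 without that tumour, and -3.5 without B5. Muc2 had 0, 7 and 0 against 7, 1 and 5, and both groups held the highest count of 7. Muc16 had 1, 3 and 0 in WT hosts against 0, 0 and 1.

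**Figure D4:**
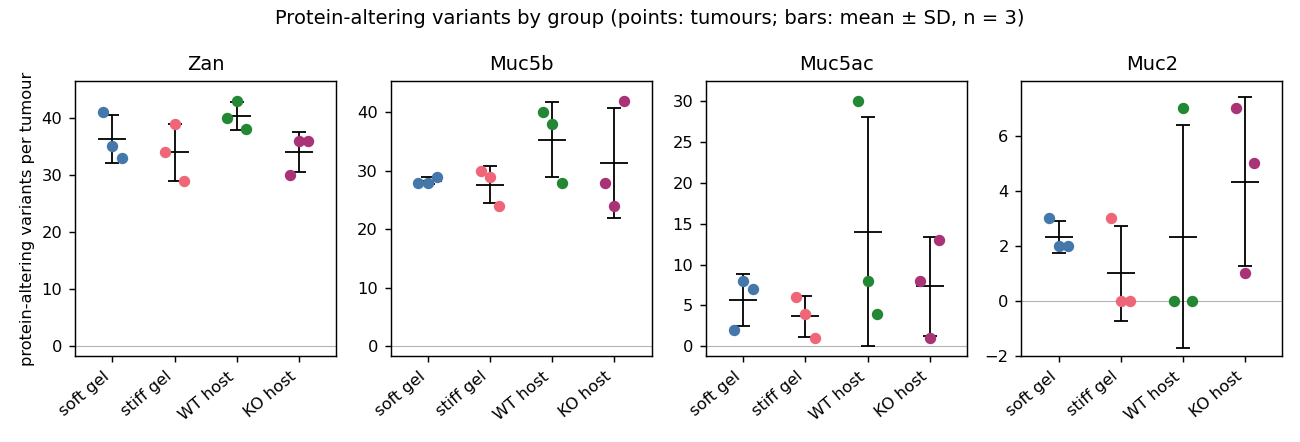
Protein-altering variants per tumour in Zan, Muc5b, Muc5ac and Muc2 by group (points are tumours, bars the mean ± SD of 3 tumours; a bar can reach below 0 where the spread exceeds the mean). The Zan tumours of WT hosts, at 38 to 43, lie above those of KO hosts, at 30 to 36, and the B1 value of 30 sets the spread of Muc5ac in WT hosts.

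The gel and host tumours differ in the gel, in the LysM-Cre host and possibly in the sequencing run together, which cannot be told apart. All 9 genes reached the minimum for testing over the 12 tumours, and none was called by edgeR. It called 0 of 6830 genes after adjustment at 0.05 (0%). Before adjustment, 414 genes had a p under 0.05, of which 46 were higher (0.673%) and 368 lower (5.39%) in gel tumours. DESeq2 called 5 genes, and 105 had an unadjusted p under 0.05 there. The 5 did not include Muc2, Muc5ac, Muc5b or Zan, and DESeq2 gave no adjusted p for Muc1, Muc4, Muc6, Muc16 and Muc20, which it could therefore not call. Of the 9 genes, 2 had a fitted level above the host tumours, 6 below and 1 an equal level, with a median log2 fold change of -0.25. Over all genes tested the median was -0.34, with 31.8% above. Among those below, Muc4 and Muc16 reached the minimum only through the host tumours, so their direction is not read. The 2 above were Muc1 and Muc6, which had no protein-altering variant in some groups. Their unadjusted edgeR p was 0.9997 and 0.9995, so their direction is not read. No gene tested had gel tumours wholly above host tumours (0%), 0.205% had them wholly below, and all 9 genes overlapped.

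Muc5b had 28 ± 2.1 protein-altering variants in gel and 33.3 ± 7.55 in host tumours (SD, n = 6; edgeR log2 fold change -0.25, SE 0.17, adjusted p = 0.654). The exact permutation p of its difference of -5.33 was 0.167 (adjusted p = 1). For Muc5ac the means were 4.67 ± 2.8 and 10.7 ± 10.3 (SD, n = 6; log2 fold change -1.13, SE 0.79, edgeR adjusted p = 0.684). Leaving out 1 tumour at a time moved the Muc5b difference between -7.2 without B5 (exact permutation p = 0.0476, unadjusted) and -3.6 without B6 (exact permutation p = 0.325). The Muc5ac difference, -6 over all tumours, moved between -7.93 without B5 (exact permutation p = 0.0455, unadjusted) and -2.13 without B1 (exact permutation p = 0.394). Without both A9 and B5 the differences were -6.4 (exact permutation p = 0.167) and -7.2 (exact permutation p = 0.127). Zan differed little between experiments, with 35.2 ± 4.31 in gel and 37.2 ± 4.4 in host tumours (SD, n = 6; log2 fold change -0.08, SE 0.14, edgeR adjusted p = 1).

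Lists of related genes are set beside the 9. edgeR called 0 genes in each of the 3 comparisons, so no list could hold a called gene. In stiff against soft, KO against WT hosts and gel against host tumours, 2, 1 and 2 of the other mucins were tested. For the proteins with von Willebrand D domains these numbers were 6, 4 and 8. They were 5, 5 and 7 for the O-glycosylation enzymes and 4, 6 and 7 for the sperm-egg genes. Over all protein-coding genes, 65.9% had a coding variant in any tumour and 10.3% had one in all 12. Of 16 listed other mucins, 10 had a coding variant in any tumour. The most were in Muc3, an intestinal membrane mucin, at a mean of 1.5, and in Emcn, which encodes endomucin of blood vessel walls, at 0.583. Of 9 proteins with von Willebrand D domains, 8 had one. Sspo, which encodes SCO-spondin of the brain's ventricles, had 18 to 32 (mean 23.4), and Vwde had 21 to 25 (mean 23.3 ± 1.14, SD, n = 12), both in all 12 tumours. Of 29 enzymes that build mucin-type O-linked sugars, 18 had a coding variant in any tumour and 0 had one in all 12. The most were in Galnt10, which starts such chains, at 3.17, and in Gcnt1, which branches them, at 2.17. Of 18 genes of sperm-egg recognition, the group to which Zan belongs, 15 had one. Acr, the acrosomal protease, led at a mean of 1.75, and Izumo1, the sperm protein that binds the egg's Juno, followed at 1.5. Both lay far below the 66.5 of Zan, but Zan was chosen for its high count and no count is scaled to coding length.

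The neighbours of the 9 genes were examined by their order alone, taking the 5 nearest protein-coding genes on each side. Of the 50 neighbours outside the set, 31 had a coding variant in any tumour and 3 in all 12, where 65.9% and 10.3% of all protein-coding genes did. The 3 were Trip6, Srrt and Ephb4, all on one side of Zan, with means of 7.58, 5.67 and 4.83 coding variants. On that side, Slc12a9, between Trip6 and Ephb4, had a mean of 1.17, and Ufsp1, beyond Srrt, had 0. On the other side of Zan the 5 nearest genes had means of 0.583 or less. Muc6, Muc2, Muc5ac and Muc5b lie next to each other in that order, with means of 0.833, 4.17, 12.9 and 38.9. Beyond the cluster, the next genes on the Muc5b side were Tollip at 0.333 and Brsk2 at 0.917, and on the Muc6 side Ap2a2 at 0.25.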

How the data were processed

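DNA of 12 tumours was captured with an exome kit and read as pairs of 150 bases at a stated depth above 50x, per the labels' protocols. BWA 2.2.1, SAMtools 1.19.2, GATK and GRCm39 are named in the submitters' processing notes. Caller settings, filters and any subtraction of normal tissue are given by no source used here.

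The authors deposited 1 table per tumour of whole-number variant counts per transcript, by impact and effect, written by snpEff per the file headers. In 94.9% of rows the effect counts summed to the impact counts, and in 5.12% to more, since a variant can carry several effect terms. The start and stop columns were not used. Rows with a blank biotype (9.66%) were left out. Per gene and impact class the highest count over protein-coding transcripts was taken. No tumours were duplicates: the closest pair, A7 and A8, differed in 4903 of 14049 genes.

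Protein-altering counts were tested with edgeR 4.0.16 in R 4.3.3 (quasi-likelihood test, equal library sizes, sum of at least 3, Benjamini-Hochberg adjustment over all genes tested, threshold 0.05), with DESeq2 1.42.0 as an alternative. SEs were derived from edgeR's p-values and are approximate. Single-gene differences used two-sided exact permutation tests over tumours (20 assignments for 3 against 3, 924 for 6 against 6, 400 within both experiments), adjusted over all genes tested. Correlations over 12 tumours used 100000 permutations of the tumours across both experiments. The fits and tests were tried on simulated data. Computation used Python 3.11.15, pandas 2.3.3 and scipy 1.17.1.

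The 9 genes and the related lists were chosen with earlier results of these data known. The genes named are the 9, and the 2 with the most coding variants of each list and of the neighbours. Also named are the 3 most alike to Zan and to Muc5b, and genes next to Zan and Muc5b in rank. Ephb4, Slc12a9, Ufsp1, Tollip, Brsk2 and Ap2a2 were added after their values were seen. Of gene symbols, 95.7% matched a RefSeq gene table of GRCm38.p6, used only for order, so no coordinates are given. One list holds 30 enzymes, of which 29 matched a single gene. Alternatives changed the tool, library sizes, filter, transcript rule, impact classes, scaling and the tumours included, and their effect is given in the closing section.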

Additional observations from a re-analysis of the deposited data

Results flagged for a closer look

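In each experiment, the 6 tumours of each gene were examined for a protein-altering count that stands far from the others, and 9 of the 18 sets held one. The limit used would flag about 1 in 20 sets of continuous values by chance, and that rate does not hold for small counts with ties, so the number of flags is not read. For Muc5b, tumour A9 had 24 where the other 5 gel tumours had 28 to 30. For Muc16, tumour B2 had 3 among the host tumours, and A8 had 1 among gel tumours that were otherwise at 0. For Muc1, A7 had 2 and B4 had 1, with no other tumour above 0. For Muc4, A2 had 1 where the other gel tumours had 0, and for Muc6, B1 had 1 where the other host tumours had 0. For Muc20, A2 and B6 each had 2 where every other tumour had 1. All of these apart from Muc5b and Muc16 in B2 are single tumours among 5 with equal counts, where any departure meets the limit for 6 values of 0.625 of the range.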

How the results depend on the processing

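No gene was called under any alternative in stiff against soft or KO against WT hosts, and none of the 9 was called in any comparison, though 5 of them had no DESeq2 adjusted p in gel against host tumours. In gel against host tumours, DESeq2 called 5 genes where edgeR called 0, with 4893 of its adjusted p-values missing, and the counts without 1 tumour ran from 0 to 3, the 3 without A2. The causes were not tested. The summed protein-altering count of the 9 genes differed by -4.67 in stiff against soft, by -16.3 in KO against WT hosts and by -15.8 in gel against host tumours. Scaled to each tumour's total, these were 2.54, 5.48 and 2.2. Without 1 tumour each they ran from -8.33 to 1.67 (the highest without A9), from -27.8 to -6.83 (-27.8 without B3, -27 without B6, -8 without B5 and -6.83 without B1), and from -20.8 (without B5) to -10.4 (without B1).

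Some differences in single genes changed sign, none of them called. Scaling to the total gave 2.33 for Muc5b and 1.11 for Zan in stiff against soft, 3.65 and 3.93 in KO against WT, and 1.62 and 5.24 in gel against host, where the unscaled values were below 0. Leaving out A9, or A9 and B5, gave 1.17 for Muc5b and 0.167 for Zan in stiff against soft. Without 1 tumour each, the ranges in stiff against soft were -1.83 to 1.17 for Muc5b and -4.83 to 0.167 for Zan. The Muc5ac difference in KO against WT ran from -11.7 to 1.33, and the Muc1 difference in gel against host from -0.167 to 0.333. Coding variants gave 0.333 for Muc4 in stiff against soft. The median over transcripts gave 0.333 for Muc4 in KO against WT, and 0.333 for Muc2 and 0.167 for Muc16 in gel against host. Moderate-impact variants alone gave -0.167 for Muc1 and 0.167 for Zan in gel against host. Using totals as library sizes moved the median log2 fold change of all genes from 0 to 0.13, from -0.31 to 0.00 and from -0.34 to -0.06 in the 3 comparisons.

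No paired analysis was possible because the groups share no replicate numbers. Read depth, positions and allele fractions are unknown here, and 3 tumours against 3 cannot give an exact p under 0.1. The correlations without A9 and B5 and the comparison of lowest-impact variants were added after seeing the data.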
